A study of Mus musculus with 6 samples.

Results

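The 10 genes described here are 6 Wnt ligands (Wnt4, Wnt5a, Wnt6, Wnt10a, Wnt10b and Wnt11) and 4 canonical Wnt targets (Axin2, Lef1, Nkd1 and Notum). They were taken by symbol from the 25899 rows of the deposited expression table, and all 10 were found. RNA came from the apical dental mesenchyme of first mandibular molars of mice at postnatal day 7.5 (another label names dental pulp), in the period when molar roots start to form. The 3 mutant libraries carried Gli1-CreER with loxP-flanked Bmpr1a (Gli1-CreER;Bmpr1afl/fl), and the 3 littermate control libraries carried the floxed alleles alone (Bmpr1afl/fl). Both groups therefore shared the floxed alleles and a mixed background of C57Bl6/129S6/SvEvTac. CreER is a recombinase that acts after tamoxifen, and here it is made only in Gli1-expressing cells, so cells outside that lineage keep the BMP receptor. The labels used here give neither the tamoxifen schedule nor whether controls received it. Of the 2 litters, litter 2 supplied only control 3 and mutant 3, and the remaining 4 libraries came from litter 1. Nothing in the labels says whether a library came from 1 animal or from several, so p-values measure the spread between these libraries.

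Wnt proteins are secreted lipid-modified signals that bind Frizzled receptors. In the canonical branch, receptor binding with Lrp5 or Lrp6 stops the destruction of beta-catenin, which then enters the nucleus and activates genes together with Lef1 and the Tcf factors. Axin2, Nkd1 and Notum are induced by this branch and act back on it as inhibitors, so their transcripts are widely used as readouts of it. In the tooth, Wnt signals pass between epithelium and mesenchyme, and Wnt10a is tied to tooth number and root form.

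The libraries held between 15916045 and 20609420 reads on genes, and values are given as RPM, reads per 1000000 mapped reads. Bmpr1a, the targeted gene, lay between 121 and 149.5 RPM in controls and between 108 and 120 RPM in mutants, without overlap (change -0.27, SE 0.14, limma unadjusted p 0.091, adjusted p 1.00 with Benjamini-Hochberg). Reads from undeleted exons and from unrecombined cells count towards these values. The tissue label was checked against marker genes. All 12 listed dental mesenchyme markers, Msx1, Pax9 and Lhx8 among them, had a mean of at least 1 RPM, with a summed level from 20121 to 28434 RPM in controls and from 11984 to 33606 RPM in mutants. All 12 listed epithelium and enamel markers were also present, at a summed 2351 to 39418 RPM in controls and 5428 to 49846 RPM in mutants. Epithelial transcripts were thus measured in all 6 libraries. In bulk tissue, fewer cells of a type and less RNA per cell cannot be told apart. Of the 5 skeletal muscle markers, Myh3, Ckm and Myog had no more than 3 reads in any library, while Acta1 and Tnnt3 exceeded that in some. The list summed to 0.315 to 0.527 RPM in controls and 0.249 to 1.01 RPM in mutants.

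The ligands share the site at which Porcn, an acyltransferase of the endoplasmic reticulum, attaches the lipid that Wnts need to bind Frizzled. Notum, a secreted hydrolase, removes that same lipid. The coding stretch around the acylated serine is shown for each of the 6 ligands because it is the point where the ligands and the target Notum meet. Each line gives 24 bases of the longest coding transcript in GENCODE M21, 5′ to 3′, with the serine codon in capitals.
Wnt4: tgtcacggggtgTCGggctcctgc
Wnt5a: tgtcatggagtgTCTggctcctgt
Wnt6: tgccatgggcttTCGggttcctgc
Wnt10a: tgccacggcaccTCAggcagctgc
Wnt10b: tgccatggaacgTCAggcagctgc
Wnt11: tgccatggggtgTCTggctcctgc
These stretches lie, in build GRCm38, at chr4:137296345-137296368, chr14:28522515-28522538, chr1:74784172-74784195, chr1:74803156-74803179, chr15:98772878-98772901 and chr7:98850260-98850283, in the order printed. All are on the plus strand except that of Wnt10b. Each lies within a single coding exon, which is exon 5 of 5 for Wnt4, Wnt5a and Wnt10b, exon 4 of 4 for Wnt6 and Wnt10a, and exon 6 of 7 for Wnt11. The serine is codon 212 of 351 in Wnt4, 244 of 380 in Wnt5a, 227 of 364 in Wnt6, 268 of 417 in Wnt10a, 253 of 389 in Wnt10b and 215 of 354 in Wnt11. Of the 24 positions, 13 hold the same base in all 6 ligands. Wnt10a and Wnt10b share 21 of 24 bases, while Wnt5a and Wnt10a share 14, the fewest of the 15 pairs.

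To compare levels between genes, RPM was divided by the kilobases of all annotated exons of a gene. On this per-length scale Wnt10a and Wnt6 were the highest of the 10 genes. Wnt10a was at 36.2 ± 12.3 RPM per kilobase in controls and 40.1 ± 5.10 in mutants (values after ± are SDs of the 3 libraries of a group, n = 3). Wnt6, its immediate neighbour on chromosome 1 with 6194 bases between the annotated genes, was at 34.4 ± 9.63 in controls and 35.3 ± 6.90 in mutants. Wnt5a followed at 24.5 ± 6.30 and 21.7 ± 2.51, and Wnt4 at 24.96 ± 25.1 and 16.2 ± 7.34. The targets were spread widely: Notum at 25.5 ± 18.3 and 8.08 ± 2.30, Nkd1 at 15.1 ± 6.38 and 10.4 ± 5.07, Axin2 at 6.76 ± 1.70 and 6.15 ± 1.07. Wnt11 was at 6.53 ± 2.58 and 5.60 ± 1.14. Wnt10b, at 2.29 ± 2.31 and 5.55 ± 1.38, and Lef1, at 2.46 ± 0.963 and 1.99 ± 0.587, were the lowest. In the order of the mean over 6 libraries, the library values of neighbouring genes overlapped within each group, with 3 exceptions. Wnt6 lay wholly above Wnt5a in mutants, Nkd1 above Axin2 in controls, and Wnt10b above Lef1 in mutants. The library values of Wnt10a and Wnt6 exceeded those of Axin2, Wnt11, Wnt10b and Lef1 in every library.

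**Figure D1:**
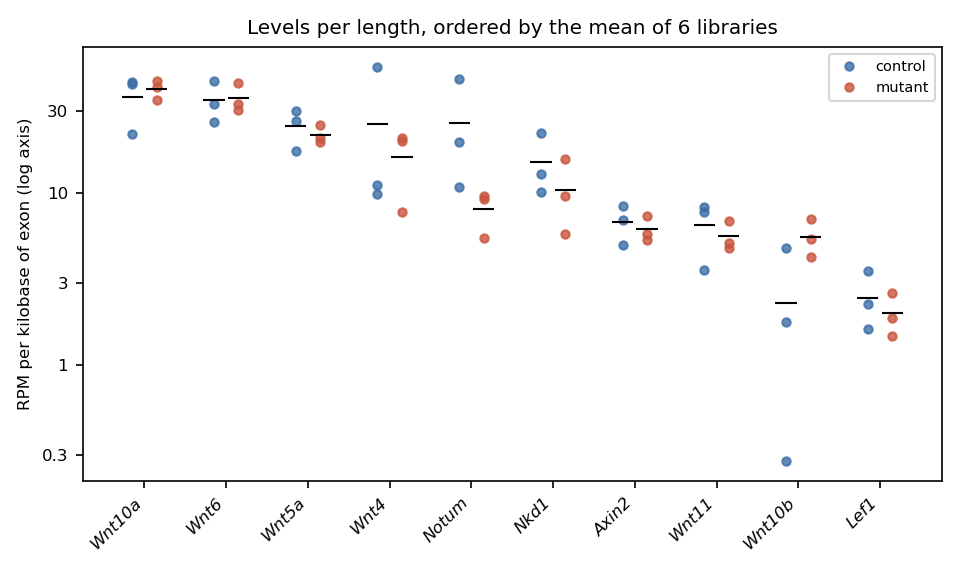
Level of each of the 10 genes in RPM per kilobase of annotated exon (log axis), ordered by the mean of the 6 libraries; points are libraries and horizontal lines group means. Wnt10a and Wnt6 are highest, Lef1 is lowest, and the Wnt10b and Notum groups stand farthest apart.

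The comparison of mutants with controls asks how loss of Bmpr1a from Gli1-expressing cells and their descendants bears on transcript levels. None of the 10 genes had an adjusted p under 0.05 (limma with Benjamini-Hochberg adjustment over 14444 tested genes), against 0% of all tested genes. At an unadjusted p under 0.05 stood 1 of the 10, Notum, against 1.05% of all tested genes. By direction, 1 of 10 was lower at that threshold (0.692% of all tested genes) and 0 of 10 higher (0.36%). The groups did not overlap for that same 1 gene of 10, against 2.64% of all tested genes. That made 1 of 10 wholly lower in mutants (1.67% of all tested genes) and 0 of 10 wholly higher (0.976%). The median log2 change was -0.14 over the 10 genes, -0.04 over the 6 ligands and -0.41 over the 4 targets, beside -0.01 over all tested genes. All 4 targets and 3 of 6 ligands were lower on average in mutants, where 7859 of the 14444 tested genes were lower (by mean log2(RPM + 1)). The dental mesenchyme markers were lower alongside them, 10 of 12 by the same measure, with a median change of -0.30. Of the 12, 3 (Lhx8, Gli1 and Lhx6) were lower at an unadjusted p under 0.05, against 0.692% of all tested genes. Gli1 is also the gene that names the CreER driver, which only the mutants carried. Neither the driver's part in the Gli1 value nor the part of these markers in the targets' values was tested.

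Notum showed the greatest difference among the targets. It lies at chr11:120653788-120661175 on the minus strand. Its levels were 26.1, 47.6 and 111 RPM in controls 1, 2 and 3 and 13.1, 22.3 and 23.0 RPM in mutants 1, 2 and 3. All 3 mutants lay below all 3 controls, and control 3, of litter 2, was far above the others. The means were 61.5 ± 44.0 and 19.5 ± 5.54 RPM, 3.16-fold lower in mutants. Fold changes were fitted as differences of log2(RPM + 1), and the added 1 RPM shrinks those of weakly expressed genes. For Notum the change was -1.41 (SE 0.49, 95% interval -2.57 to -0.25). The unadjusted p was 0.0241, and after Benjamini-Hochberg adjustment of the limma fit it was 1.00, so the difference fails adjustment. Of the 14444 tested genes, 10 (0.0692%) had a change as low as that of Notum or lower, Notum included. Within litter 1 the change was -1.002 and within litter 2 it was -2.22. Without control 3 the change was -0.87 (unadjusted p 0.0391), and without mutant 1 it was -1.16 (unadjusted p 0.0986). With sample weights it was -0.68 (unadjusted p 0.133), and with no filter on low values the unadjusted p was 0.0656 (both limma). The value rests on 368 to 3138 reads per library. Exons of Notum overlap 708 bases of the antisense gene Notumos and 210 bases of Myadml2os, and since the counting strand is not given in the sources used here, reads from these cannot be told apart.

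Among bone matrix genes, Ibsp and Bglap were set beside Notum after their values were seen, and they differed in pattern. Ibsp, encoding a sialoprotein of mineralizing matrix, was at 35.5, 65.9 and 154 RPM in controls 1 to 3 and at 29.9, 23.6 and 25.7 RPM in mutants 1 to 3. The RPM of Notum divided by that of Ibsp was 0.734, 0.722 and 0.720 in controls 1 to 3 and 0.437, 0.945 and 0.896 in mutants 1 to 3. Notum ranged 8.47-fold and Ibsp 6.52-fold over the 6 libraries, while their ratio ranged 2.16-fold. Bglap, encoding osteocalcin, did not follow Notum: it had 279, 730 and 437 RPM in controls 1 to 3 and 831, 702 and 86.8 RPM in mutants 1 to 3, highest in mutant 1, where Notum was lowest. Of the osteoblast list, 8 of 9 genes were tested and 8 of 8 had a lower mean log2(RPM + 1) in mutants. Of these, 3 had an unadjusted p under 0.05, against 0.692% of all tested genes lower at that threshold, and 0 passed adjustment. The mean RPM of Bglap (482 in controls, 540 in mutants) and of Bglap2 (297 and 331) was nevertheless higher in mutants. Mepe, of late osteoblasts and osteocytes, had 0 reads in 5 of 6 libraries. The list's summed level ran from 1210 to 2271 RPM in controls and from 675 to 2119 RPM in mutants. With the mean of these markers as a covariate, a fit chosen after the data were seen, the Notum change was -0.85 (unadjusted p 0.215). With epithelial genes as the covariate instead it was -1.53 (unadjusted p 0.0188). The osteoblast mean of log2(RPM + 1) was 5.64, 6.69 and 6.85 in controls and 5.96, 5.78 and 5.09 in mutants. Because it was lower on average in mutants, the fit with it cannot separate bone cells from genotype. The part of bone cells in the difference was not tested. Axin2, the target most often used as a general readout, did not share this pattern: the Notum to Axin2 ratio was 0.567, 1.74 and 2.89 in controls and 0.448, 0.699 and 0.568 in mutants.

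**Figure D2:**
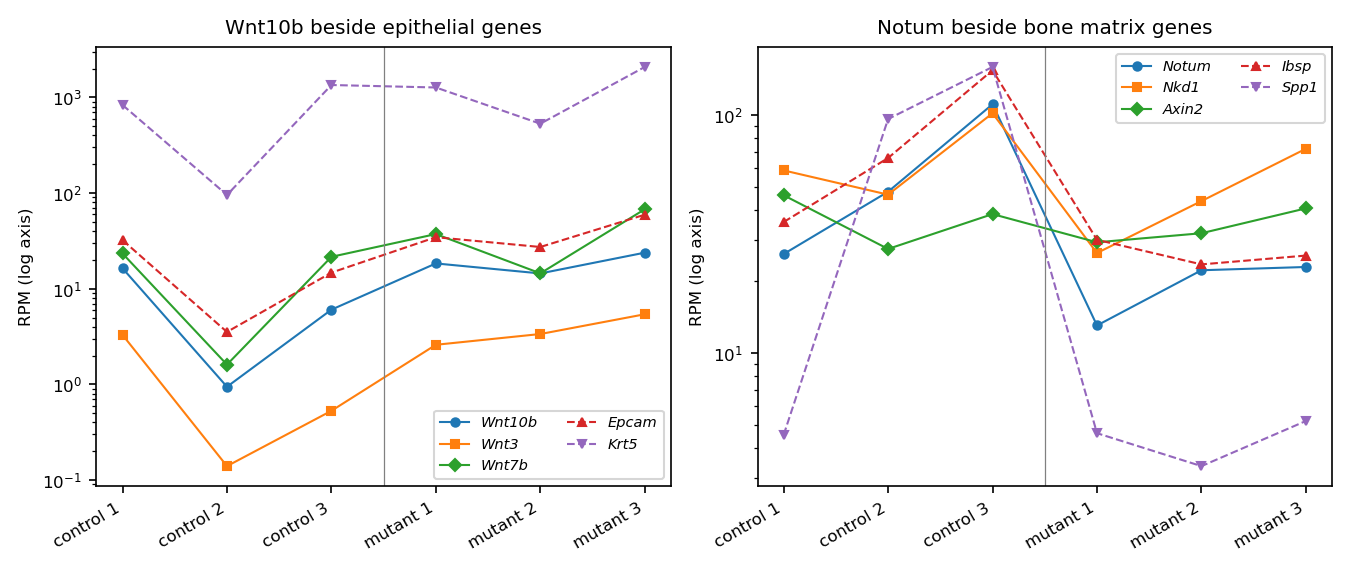
RPM (log axis) in each library of Wnt10b, Wnt3 and Wnt7b with the epithelial genes Epcam and Krt5 (left) and of Notum, Nkd1 and Axin2 with the bone matrix genes Ibsp and Spp1 (right); lines only join the points of a gene. Control 2 is lowest for all 5 genes on the left, and control 3 is highest for Notum, Nkd1, Ibsp and Spp1 on the right.

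Nkd1 encodes a protein that binds Dishevelled and dampens the signal inside the cell. The gene lies at chr8:88521354-88594884 on the plus strand. Nkd1 was at 58.5, 46.3 and 102 RPM in controls 1 to 3 and at 26.3, 43.5 and 72.1 RPM in mutants 1 to 3. The groups overlapped, since mutant 3 exceeded controls 1 and 2. Within each litter, however, every mutant lay below every control, with changes of -0.60 in litter 1 and -0.49 in litter 2. Nkd1 and Notum, 2 of the 10 genes, showed this order, against 5.35% of all tested genes. The reverse order, higher within both litters, was held by 0 of the 10, against 2.92%. The pooled Nkd1 change was -0.57 (SE 0.41, 95% interval -1.53 to 0.39, unadjusted p 0.207). With litter as a block the unadjusted p was 0.0302 and the adjusted p 1.00 (limma with Benjamini-Hochberg). Leaving out 1 library at a time, the Nkd1 change ran from -0.21 (without mutant 1) to -0.92 (without mutant 3, unadjusted p 0.0458), and was -0.25 without control 3.

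Axin2, a scaffold of the beta-catenin destruction complex, lies at chr11:108920349-108950783 on the plus strand. It was at 46.0, 27.4 and 38.3 RPM in controls 1 to 3 and at 29.2, 31.9 and 40.5 RPM in mutants 1 to 3. It varied 1.68-fold over the 6 libraries, the least of the 10 genes. Controls and mutants overlapped throughout, with a change of -0.12 (SE 0.22, unadjusted p 0.614). The 95% interval of -0.64 to 0.40 leaves room for a moderate change in either direction. Its exons overlap 209 bases of the antisense gene Gm11670, which the table lists separately.

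Lef1, the nuclear partner of beta-catenin, lies at chr3:131110471-131224356 on the plus strand. Its levels were 19.9, 14.2 and 30.9 RPM in controls 1 to 3 and 16.6, 12.9 and 23.1 RPM in mutants 1 to 3. In both groups the library of litter 2 was the highest, and the groups overlapped. The change was -0.26 (SE 0.31, 95% interval -1.0005 to 0.48, unadjusted p 0.433). Its exons overlap 1208 bases of the antisense gene Gm43352, so its values carry the same uncertainty over strand as those of Notum.

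Among the 6 ligands, Wnt10b had the largest log2 change, in the opposite direction to the targets. The gene lies at chr15:98770712-98778150 on the minus strand. It was at 16.4, 0.944 and 6.04 RPM in controls 1 to 3 and at 18.4, 14.4 and 23.8 RPM in mutants 1 to 3. Control 2, with 27 reads and a 95% Poisson interval of 0.622 to 1.37 RPM for counting error, was far below all others, and control 1 exceeded mutant 2. The means were 7.78 ± 7.85 and 18.9 ± 4.70 RPM. The change was 1.65 (SE 0.71, 95% interval -0.03 to 3.34), with a limma p of 0.0527 before and 1.00 after Benjamini-Hochberg adjustment. It was 1.57 within litter 1 and 1.82 within litter 2. Without control 2 it was 0.82 (unadjusted p 0.0781), and without control 1 it was 2.40 (unadjusted p 0.0039).

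Epcam followed Wnt10b across the libraries more closely than Krt5, Krt14 and Cdh1 did. Epcam, encoding an adhesion protein of epithelia, was at 32.2, 3.53 and 14.7 RPM in controls 1 to 3 and at 34.5, 27.3 and 59.4 RPM in mutants 1 to 3. Control 2 was lowest for Epcam as it was for Wnt10b, and mutant 3 highest for both. Wnt10b ranged 25.2-fold and Epcam 16.8-fold over the libraries, while the ratio of their RPM ranged 1.99-fold, from 0.267 to 0.532. Krt5, a keratin of basal epithelium, had 832, 95.4 and 1345 RPM in controls 1 to 3 and 1267, 529.9 and 2076 RPM in mutants 1 to 3. Krt5, Krt14 and Cdh1 were lowest in control 2 as well, but in control 3 they stood above mutants 1 and 2 (Krt14 at 990 RPM, Cdh1 at 218 RPM), where Wnt10b stood below both. With the mean of Krt14, Krt5, Epcam and Cdh1 as a covariate, a fit chosen after the data were seen, the Wnt10b change was 0.86 (unadjusted p 0.0944). With the osteoblast covariate it was 0.57 (unadjusted p 0.483). The epithelial mean includes Epcam, which was singled out after its values were seen and varied closely with Wnt10b. A smaller Wnt10b change was thus partly built into that fit. The part of epithelium in the difference was not tested. Of the 12 epithelium and enamel markers, 11 had a higher mean log2(RPM + 1) in mutants and 0 had an unadjusted p under 0.05. The members of the list did not vary alike: Amelx, of enamel epithelium, was highest in mutant 1 at 23480 RPM, where Epcam was at 34.5 RPM.

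Wnt10a, the closest relative of Wnt10b, lies at chr1:74791516-74804179 on the plus strand and is expressed in odontoblasts as well as in epithelium. It was at 105, 54.5 and 109 RPM in controls 1 to 3 and at 110, 85.5 and 101 RPM in mutants 1 to 3. Control 2 was again the lowest library, but by far less than for Wnt10b. The ratio of Wnt10b to Wnt10a in RPM ran from 0.0173 in control 2 to 0.236 in mutant 3. The Wnt10a change was 0.20 (SE 0.27, 95% interval -0.44 to 0.85, unadjusted p 0.482). All 7 odontoblast markers had a lower mean log2(RPM + 1) in mutants, though the mean RPM of Dspp (3231 in controls, 3876 in mutants) and of Phex (333 and 417) was higher. The list summed to between 1903 and 6184 RPM in controls and between 542 and 8279 RPM in mutants, and 0 had an unadjusted p under 0.05. Mutant 3 was lowest in that sum but near the group mean in Wnt10a.

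Wnt6 lies next to it at chr1:74771892-74785322, also on the plus strand. It was at 71.6, 56.5 and 98.2 RPM in controls and at 94.5, 66.1 and 71.5 RPM in mutants, with libraries of both groups interleaved. The change was 0.06 (SE 0.23, 95% interval -0.49 to 0.60, unadjusted p 0.818). Wnt6 and Wnt10a therefore differed between groups by less than the spread between libraries.

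Wnt4, a ligand that can act with or without beta-catenin, lies at chr4:137277489-137299726 on the plus strand. It was at 41.5, 46.3 and 226 RPM in controls 1 to 3 and at 87.7, 32.5 and 83.7 RPM in mutants 1 to 3. Control 3 was 5.45-fold above control 1, and the other 5 libraries stayed under 88 RPM. The change was -0.29 (SE 0.68, 95% interval -1.90 to 1.32, unadjusted p 0.688), the widest interval among the ligands after Wnt10b. Within litter 1 it was 0.28 and within litter 2 it was -1.42. The epithelium and enamel markers summed to 39418 RPM in control 3 and 49846 RPM in mutant 1, the libraries in which Wnt4 was highest. With the mean of those markers as a covariate the Wnt4 change was -0.85 (limma unadjusted p 0.0544), with the epithelial covariate -0.88 (unadjusted p 0.156) and with the osteoblast covariate 0.30 (unadjusted p 0.755), so both its size and its sign depend on the adjustment for other tissue.

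Wnt5a and Wnt11 are best known for signals that bypass beta-catenin. Wnt5a, at chr14:28504750-28527448 on the plus strand, was at 205, 233 and 137 RPM in controls 1 to 3 and at 155, 192 and 163 RPM in mutants 1 to 3. It was highest in control 2, the library lowest in Wnt10b, Wnt10a and Wnt11, and lowest in control 3, so the control range enclosed all 3 mutants. Its change was -0.14 (SE 0.22, 95% interval -0.66 to 0.38, unadjusted p 0.546). Wnt11, at chr7:98835112-98855195 on the plus strand, was at 31.9, 14.8 and 34.4 RPM in controls and at 21.2, 19.7 and 28.5 RPM in mutants. Here too all 3 mutants lay inside the range of the controls. The Wnt11 change was -0.14 (SE 0.32, 95% interval -0.91 to 0.62, unadjusted p 0.67). Exons of Wnt5a overlap 358 bases of the antisense gene Gm2670, and those of Wnt11 overlap 364 bases of the pseudogene Gm8398 on the other strand.

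**Figure D3:**
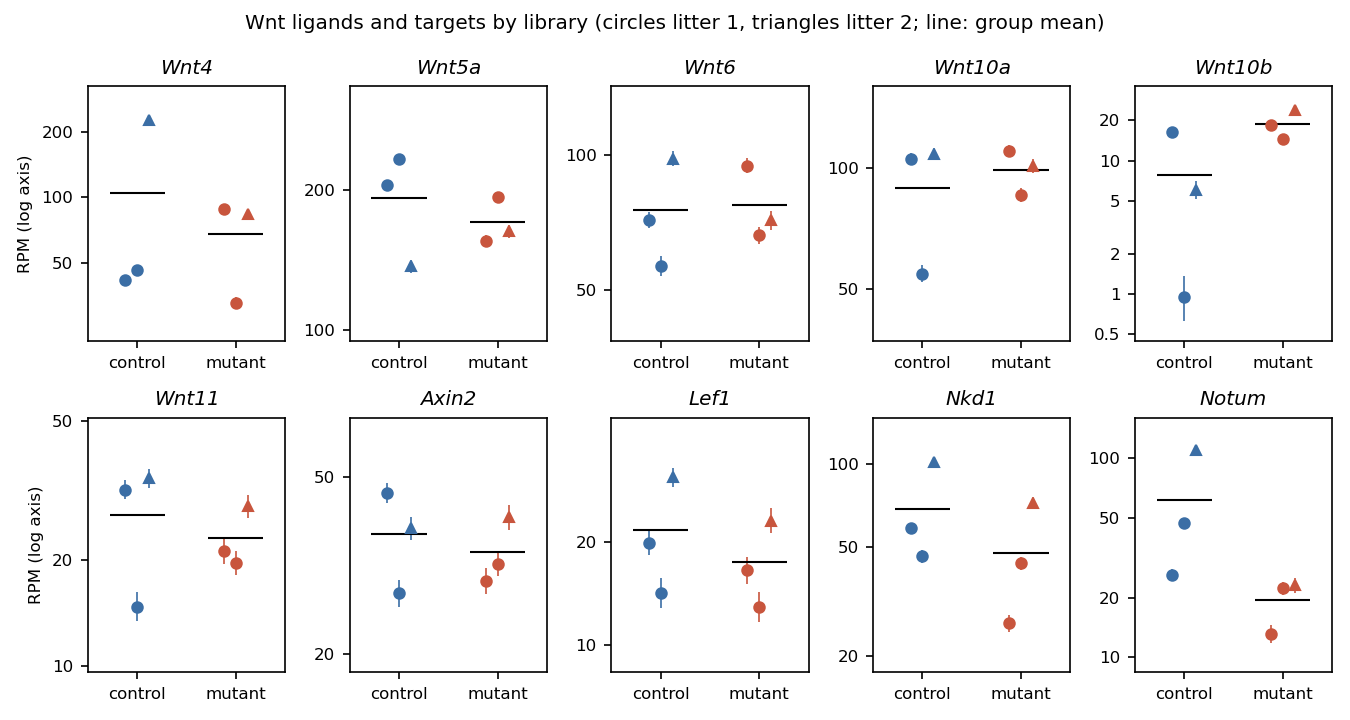
RPM (log axis, own range in each panel) of the 10 genes in 3 control and 3 mutant libraries, with 95% Poisson bars for counting error; circles are litter 1, triangles litter 2, lines group means. Only for Notum do all mutants lie below all controls, and control 2 is the low point of Wnt10b at 0.944 RPM.

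**Figure D4:**
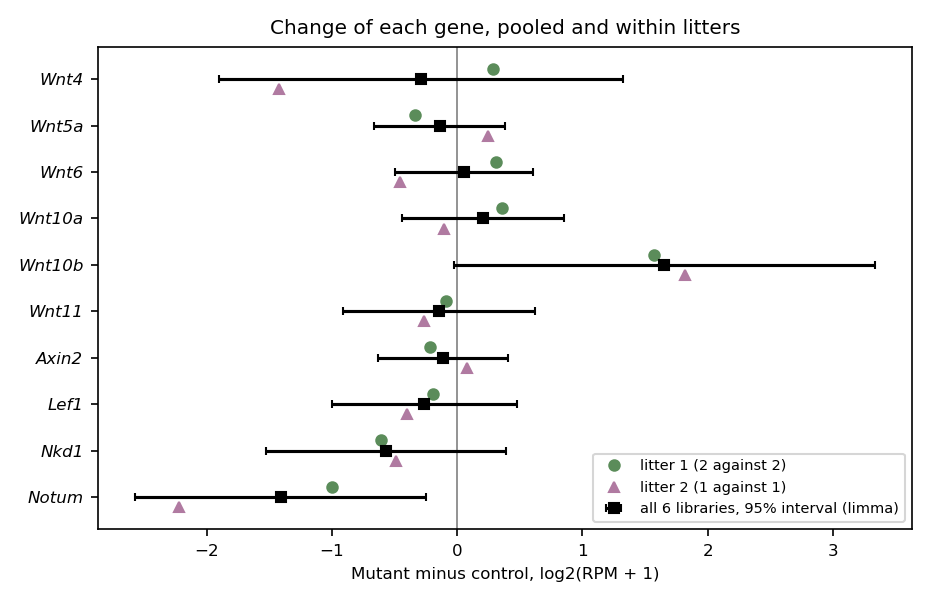
Difference of log2(RPM + 1), mutants less controls, for each gene, with the 95% interval of the fit to all 6 libraries (squares), and the change within litter 1 (circles) and litter 2 (triangles). The Notum interval alone lies wholly on one side of 0, and the litters take opposite sides for Wnt4, Wnt5a, Wnt6, Wnt10a and Axin2.

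The genotype change had the same sign in both litters for Wnt10b, Wnt11, Lef1, Nkd1 and Notum, and opposite signs for the other 5 genes. For 1 of these 5, Wnt5a, both litter 1 mutants also lay beyond both litter 1 controls, an order found in 18.2% of all tested genes. A litter-by-genotype term gave 0 of 10 genes with an adjusted p under 0.05 (limma with Benjamini-Hochberg, against 0% of all tested genes) and 0 with an unadjusted p under 0.05 (against 5.06%). The smallest unadjusted p was 0.0618, for Wnt4, with a difference of -1.71. Litter 2 holds 1 library per genotype, so litter and animal cannot be told apart. Without control 1 the adjusted p of this Wnt4 term was 0.0461, and without control 2 it was 0.0146 (limma with Benjamini-Hochberg), in fits that leave 1 residual degree of freedom and pass 251 and 309 of all tested genes.

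The rest of the pathway was listed by role. Of 13 other Wnt ligands, 7 were tested and 6 of these had a higher mean log2(RPM + 1) in mutants, with a median change of 0.65. Among them Wnt9a, had a change of 0.02 and a slightly lower mean RPM in mutants (8.53 in controls, 8.40 in mutants). Only Wnt3, a ligand of the canonical branch, had an unadjusted p under 0.05. It was at 3.29, 0.140 and 0.530 RPM in controls 1 to 3 and at 2.59, 3.36 and 5.41 RPM in mutants 1 to 3, a change of 1.25 (SE 0.50, unadjusted p 0.0404, adjusted p 1.00 by limma with Benjamini-Hochberg). Control 1 overlapped the mutants, and control 2 was lowest, as for Wnt10b and Epcam. At these low levels the size depends on the scale: with a pseudocount of 0.1 the Wnt3 change was 2.22, and with voom on recovered reads it was 2.43. With the epithelial covariate the Wnt3 change was 0.89 (unadjusted p 0.0938), and with the osteoblast covariate it was 0.25 (unadjusted p 0.487). Without control 1 its unadjusted p was 0.0012, while leaving out any other single library gave 0.0613 to 0.119 (limma). With litter as a block the unadjusted limma p of Wnt3 was 0.0503, with sample weights 0.292 and in litter 1 alone 0.213. Wnt7b, singled out after its values were seen, had 23.3, 1.61 and 21.5 RPM in controls 1 to 3 and 37.2, 14.5 and 67.7 RPM in mutants (change 1.61, SE 0.92, limma unadjusted p 0.124). Wnt1, Wnt8a and Wnt8b had no more than 3 reads in any library.

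For Porcn and Wls, which act in Wnt secretion, the differences were smaller than their standard errors. Porcn, the acyltransferase, differed by -0.03 (SE 0.15, 95% interval -0.39 to 0.33), and Wls, which carries Wnts to the cell surface, by 0.03 (SE 0.15, 95% interval -0.33 to 0.38). Of 16 receptors and co-receptors 11 had a lower mean log2(RPM + 1), with a median change of -0.12, a range from -0.36 to 0.79 and 0 at an unadjusted p under 0.05. The highest of these changes, named after its value was seen, was that of the receptor Ror1 (0.79, SE 0.41, limma unadjusted p 0.0947). Ptk7, a co-receptor of planar polarity, was at 415 ± 94.3 and 360 ± 62.8 RPM, and the receptor Fzd7 at 155 ± 26.0 and 127 ± 18.4 RPM. In the R-spondin module, whose ligands and Lgr receptors raise the number of Wnt receptors, 0 of 9 genes had an unadjusted p under 0.05, with changes from -0.64 to 0.71. Rspo4 ranged from 123 to 516 RPM in controls and from 168 to 424 RPM in mutants, with a change of 0.12 (SE 0.57). Its change was -0.61 within litter 1 and 1.60 within litter 2 (litter-by-genotype term, limma unadjusted p 0.033 and adjusted p 0.91). Rspo2, Lgr6 and Znrf3 were set beside Rspo4 after their values were seen, and they went both ways. The litter 2 change was the higher for Rspo2 (difference 1.87) and Rspo4, and the lower for Lgr6 (difference -1.68) and Znrf3 (difference -1.07). Each litter 2 change rests on 1 library per genotype. With the enamel marker covariate the Rspo4 change was 0.61 (limma unadjusted p 0.0378), the only 1 of 22 alternatives under 0.05, and it did not pass adjustment. With the epithelial covariate the Rspo4 change was 0.63 (limma unadjusted p 0.208), and with the osteoblast covariate -0.37 (limma unadjusted p 0.640). Lgr4, a receptor of R-spondins, had 55.6, 52.7 and 44.5 RPM in controls and 92.6, 57.3 and 42.8 RPM in mutants.

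Of 19 tested transducers, from Dishevelled to the Tcf factors, 16 had a lower mean log2(RPM + 1) but the median change was only -0.04, and 0 had an unadjusted p under 0.05. Tcf7l2, a transcription factor of the pathway, was the 1 transducer whose groups did not overlap, at 17.4, 20.9 and 17.6 RPM in controls and 15.7, 16.8 and 14.8 RPM in mutants (change -0.22, SE 0.15, unadjusted p 0.175). Of 14 other canonical targets, 9 had a lower and 5 a higher mean log2(RPM + 1), with a median of -0.06 and 0 at an unadjusted p under 0.05. Some of these 14 also stand on the transducer, R-spondin or dental mesenchyme lists, Znrf3 and Twist1 among them, so the lists are not independent. Twist1, a mesenchymal transcription factor, did not overlap between groups, at 68.6, 61.8 and 60.1 RPM in controls and 41.4, 45.4 and 60.0 RPM in mutants (change -0.38, SE 0.17, unadjusted p 0.0533). With litter as a block its unadjusted p was 0.0441, in litter 1 alone it was 0.00885, and it was under 0.05 in 8 of 22 alternatives, while no adjusted p was (limma with Benjamini-Hochberg). Control 3 and mutant 3, its litter 2 libraries, were nearly equal. The wider target list was not tested against the 4 targets described above. Its members went both ways.

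**Figure D5:**
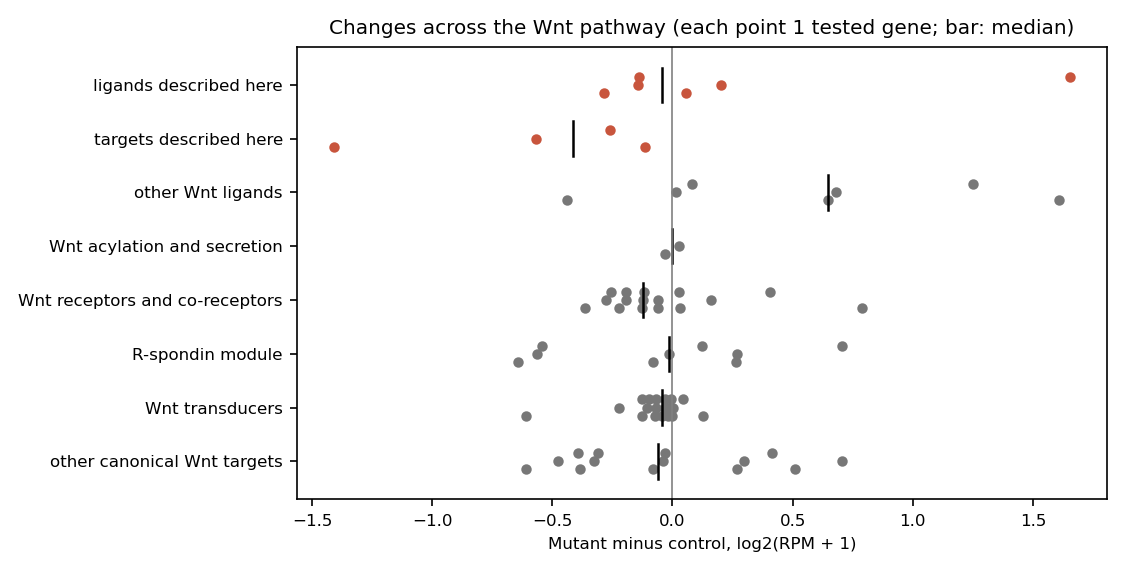
Difference of log2(RPM + 1), mutants less controls, for every tested gene of the Wnt lists, 1 point per gene, with list medians as bars; the ligands and targets described here are in red. Wnt10b at 1.65 and Notum at -1.41 lie farthest from 0 among the red points, and transducers cluster at a median of -0.04.

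As a description of pattern, each gene was correlated with every tested gene over the 6 libraries, which share litters, depth and tissue makeup. With 6 points and 14444 genes, high values of r arise readily. Wnt10b was most like Pard6b, a cell polarity gene (r = 0.995), and next Epcam (r = 0.992), which the marker list also holds. Notum was most like Cux1 (r = 0.995) and Gm11768 (r = 0.993), and Nkd1 like Slc22a18 (r = 0.996) and Nudcd2 (r = 0.991). Axin2 was most like Qrsl1 (r = 0.995), and Lef1 like Morn2 (r = 0.99) and Gatad2a (r = 0.989). Among the other ligands, the nearest gene was Mtss1 for Wnt4 (r = 0.996), Sec24c for Wnt5a (r = 0.997), Sema4b for Wnt6 (r = 0.992), Ddx39 for Wnt10a (r = 0.997) and Ablim1 for Wnt11 (r = 0.989). None of the 10 genes had another of the 10 among its 2 nearest.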

How the data were processed

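RNA-seq of 3 mutant and 3 control mouse libraries was taken from 1 table of 25899 gene symbols. Its values are log2 values deposited by the authors under the title normalized RPKM. Raised as powers of 2, 99.92% to 99.97% of the values above the column minimum lay within 0.02 reads of a whole multiple of 1 step per column. The step is the same for all genes, so length was not divided out, and values were treated as log2 RPM with an inferred denominator. Genes at the minimum (0.9 of 1 read) were set to 0. TopHat2 and mm10 are named in the submitters' processing notes; counting program, strand setting and annotation are not given in the sources used here. A level of 3 reads was 0.0987 to 0.126 RPM; intervals from reads cover counting error only.

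The 14444 genes whose mean reached 1 RPM entered a limma 3.58.1 fit of log2(RPM + 1), run in R 4.3.3 (eBayes with trend, two-sided, Benjamini-Hochberg over all tested genes). The code was tested on simulated data. Exon lengths and positions came from GENCODE M21 (GRCm38, the build mm10 names); 22632 symbols matched. Genes named beyond the 10 are those of each Wnt list with an unadjusted p under 0.05 and up to 2 without overlap between groups, or, failing both, the 2 of highest mean, and for each of the 10 up to 2 genes of highest Pearson r, of which 1 is not reported here. The 10 genes, lists and tests were chosen with earlier results of these data known. Epcam, Krt5, Amelx, Bglap, Bglap2, Cdh1, Dspp, Ibsp, Krt14, Lgr6, Lhx6, Lhx8, Mepe, Phex, Ror1, Rspo2, Spp1, Wnt7b, Wnt9a and Znrf3 were singled out after their values were seen. Alternatives covered pseudocount, filter, scaling, moderation, weights, litter, replicate number, marker covariates, voom and each library left out. Figures were drawn with matplotlib 3.10.9.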

Additional observations from a re-analysis of the deposited data

Results flagged for a closer look

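For 3 of the 19 genes examined (the 10 and the 9 named by rule) the litters took opposite sides: the 2 mutants of litter 1 were both above or both below its 2 controls, and litter 2 had the reverse order. This held for 18.2% of all tested genes and for 21 of the 73 tested genes of the Wnt lists, the 10 included. The difference of the change between litters, litter 2 minus litter 1, was 0.58 for Wnt5a (limma unadjusted p 0.122, adjusted p 0.91 with Benjamini-Hochberg). It was 0.28 for Porcn (limma unadjusted p 0.411) and -0.47 for Lgr4 (limma unadjusted p 0.303), and neither passed adjustment. Litter 2 has 1 library per genotype.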

How the results depend on the processing

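Fits with the epithelial or osteoblast markers as a covariate were chosen after the data were seen. None of the 10 genes passed adjustment in any of the 22 alternatives. Over all tested genes 2 passed with no filter on low values, and 0 to 1 across the fits leaving out 1 library. Among the 10, an unadjusted p under 0.05 was met by 1 gene as reported, 0 with no filter, 0 weighting samples, 2 blocking on litter, 2 with voom, 4 with the epithelial covariate (Notum, Nkd1, Lef1 and Wnt11), 0 with the osteoblast covariate and 0 to 2 leaving out 1 library. Over all genes that count was 152 as reported, 347 with no filter, 319 in litter 1 alone, 292 blocking on litter, 309 weighting samples, 375 with the enamel covariate, 396 with the epithelial covariate and 68 to 325 leaving out 1 library. Under a block for the replicate number, 524 genes and 3 of the 10 (Notum 0.00142, Wnt10b 0.0134, Nkd1 0.0324) had an unadjusted p under 0.05, and 0 passed adjustment. Same-numbered libraries, which share a litter, deviated together in pairs 2 and 3 (r = 0.75 and 0.50 across genes) but not in pair 1 (-0.03). The labels do not say whether the numbers pair the samples, and these values cannot decide it. The term for a difference between litters passed adjustment for 0 to 1 of the 10 leaving out 1 library; it cannot be fitted without a library of litter 2.

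Notum, Nkd1 and Wnt10b kept their direction in 22 of 22 alternatives. Notum ran from -1.89 to -0.68, with an unadjusted p under 0.05 in 18. Signs turned in litter 1 alone for Wnt4 (0.28), Wls (-0.038) and Rspo4 (-0.61), with the enamel covariate for Wnt5a (0.021) and Wnt6 (-0.13), with the epithelial covariate for Wnt5a (0.059), Wnt6 (-0.15), Wnt10a (-0.12) and Ptk7 (0.015), and with the osteoblast covariate for Wnt4 (0.30) and Rspo4 (-0.37). Leaving out 1 library, Wnt4 ran from -0.72 to 0.49, Wnt5a from -0.36 to 0.018, Wnt6 from -0.13 to 0.26, Wnt10a from -0.12 to 0.37, Wnt11 from -0.52 to 0.068, Axin2 from -0.32 to 0.048, Lef1 from -0.52 to 0.018, Wls from -0.020 to 0.10, Porcn from -0.11 to 0.020, Rspo4 from -0.45 to 0.58 and Lgr4 from -0.033 to 0.51. For these moves the cause was not tested. The fits of litter 1 alone and those leaving out 1 library also hold fewer libraries. Depth limits Wnt10b in control 2, Wnt3 and the ligands at a few reads most.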
